A study of Mus musculus with 2 samples.

Results

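Small RNAs that carried neither of the base marks of piRNAs were described in testes of Tdrkh-/- and Tdrkh+/- mice. A sequence of 24 to 37 nt belonged to this set when its first base was not T (a U in RNA), its base at position 10 was not A, and it matched no microRNA or structural RNA gene of GENCODE M21 in sense. The rule found 3270482 distinct sequences, out of 18867857 of the same lengths and 22794309 in all. Of the members, 1518574 were found in the Tdrkh-/- library and 1864298 in the Tdrkh+/- library, and 1893955 had 24 to 30 nt and 1376527 had 31 to 37 nt. The sequences with a mark were 9058869 with a 5′ U alone, 2068028 with an A at position 10 (10A) alone and 4470478 with both. The study sequenced small RNAs of 15 to 40 nt from testes at 11 days after birth, 1 library from each genotype, made of 5 pooled pairs of testes. Tdrkh-/- mice lack exons 2 to 4 of both copies of Tdrkh and Tdrkh+/- mice lack them in 1 copy, so the controls carried the deletion too. The floxed exons were removed with an EIIa-Cre transgene that was then bred out, on a mixed C57Bl6/129 background. There were 2 knockout lines, and which of them gave this library is not given in the sources used here. Each genotype had a single library, so differences had no replicate check and no test was possible. All intervals are 95% and cover counting error only.

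PIWI proteins of the mammalian male germline bind piRNAs, which are cut from long single-stranded RNAs and keep transposons silent. Primary piRNAs usually begin with U, because PIWI proteins hold this base best, and their 3′ ends are trimmed to the length the protein covers. In the ping-pong cycle a piRNA guides the cut of an RNA of the opposite strand, so that the new piRNA pairs with the first 10 bases of its guide and tends to carry an A at position 10. Tdrkh is a mitochondrial protein with Tudor and KH domains that takes part in forming piRNA 3′ ends. Reads that lack both marks can be piRNAs with another first base or fragments of other RNAs, and the sequence alone does not separate these.

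The libraries held 60973266 reads in Tdrkh-/- and 43172204 reads in Tdrkh+/-, of which members made up 4760667 and 4147324. Sense reads of 24 to 37 nt over exons 2 to 4 of Tdrkh (chromosome 3, 94422802 to 94424690, GRCm38) numbered 0 in Tdrkh-/- and 17 in Tdrkh+/-, and the other exons had 626 and 1052. Levels were set against microRNA reads, which are made without PIWI proteins and numbered 2482747 in Tdrkh-/- and 2359299 in Tdrkh+/-.

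The most abundant 24 to 30 nt members that match a single gene show what such reads look like. Each begins with A, C or G and has C, G or T at position 10, and the capitals mark these positions, 1 and 10. They are among the top 10 by reads of both libraries together, and each but that of Gm49794 lies in a 3′ untranslated region.
Polr3gl: AactcggtaTgtagctgaggctggcct
Il17rd: CtcgaactcTtaagatacacctgcct
Trim71: GagaaagccGttttatctgttaggagc
Zbtb37: GaaactcgaTctgtagattagcctggcc
Sntb2: CtcaaactcTctagagatctatctgcct
Tmem245: AataaatccGtgagagtcctgaccct
Zfp317: CtcactttgTagaccaggctggccccgcc
Gm49794: GcttcattcTgtggatctgacatgcct

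The 27 nt sequence of Polr3gl (chromosome 3, 96577872 to 96594181), a gene of an RNA polymerase III subunit, had 4315 reads in Tdrkh-/- and 342 in Tdrkh+/-, giving a ratio of 12.0 per microRNA read (10.7 to 13.4). That of Zbtb37 (chromosome 1, 161002922 to 161034849), which encodes a zinc finger protein, had 1841 and 852 reads, a ratio of 2.05. Of the sequences shown, these were the pair with more reads per microRNA read in Tdrkh-/-. That of Zfp317, another zinc finger gene, had 1065 reads in Tdrkh-/- and 1258 in Tdrkh+/-, giving a ratio of 0.804. The other 5 were far lower in Tdrkh-/-. Il17rd, a receptor-like inhibitor of growth factor signalling, had 226 reads in Tdrkh-/- and 3763 in Tdrkh+/-, giving a ratio of 0.0571 (0.0497 to 0.0653). Trim71, an RNA-binding ubiquitin ligase, had 23 and 2808 reads. Sntb2, a syntrophin of the membrane skeleton, had 11 and 2440, and Tmem245, a membrane protein, had 37 and 2379. The long noncoding Gm49794 had 20 reads in Tdrkh-/- and 1974 in Tdrkh+/-. Ratios of the sequences shown therefore ran from 0.00428 for Sntb2 to 12.0 for Polr3gl. No repeat annotation was used here, so copies of these sequences outside transcripts were not counted.

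At 31 to 37 nt the most abundant single-gene members outside untranslated regions included pieces of coding sequence and of pseudogenes. Longer sequences from untranslated regions are not printed. The capitals again mark positions 1 and 10.
Gm12260, 31 nt: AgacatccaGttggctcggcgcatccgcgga
Gm12260, 34 nt: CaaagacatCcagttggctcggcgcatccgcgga
Fth1: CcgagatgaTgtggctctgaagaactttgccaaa
Gm9864, 37 nt: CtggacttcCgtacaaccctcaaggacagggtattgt
Gm9864, 33 nt: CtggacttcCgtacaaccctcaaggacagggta
Stard9: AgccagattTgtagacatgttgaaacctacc
Snx5: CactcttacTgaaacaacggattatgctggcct

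The sequence shown for Fth1 (chromosome 19, 9980598 to 9985098), the ferritin heavy chain, had 647 reads in Tdrkh-/- and 249 in Tdrkh+/-, giving a ratio of 2.47 (2.13 to 2.87). All long members of the gene had 6435 and 1710 reads, a log2 ratio of 1.84, so this sequence was a small part of them. The pseudogene Gm9864 gave 2 sequences with the same 5′ end. Its 37 nt form had 728 reads in Tdrkh-/- and 253 in Tdrkh+/-, giving a ratio of 2.73, and its 33 nt form had 395 and 431, a ratio of 0.871 (0.758 to 1.001). So the longer form was the more frequent in Tdrkh-/- and the shorter one in Tdrkh+/-. The pseudogene Gm12260 also gave 2 sequences, here with the same 3′ end and 5′ ends 3 nt apart. The 31 nt form had 1688 reads in Tdrkh-/- and 503 in Tdrkh+/-, and the 34 nt form had 1411 and 173. Pseudogenes resemble their parent genes and only exact matches were counted, so the origin of such reads is uncertain. Stard9, a kinesin, had 373 and 189 reads, and the sorting nexin Snx5 had 344 and 21.

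Members were a small part of the reads of piRNA size in both genotypes. At 24 to 30 nt they made up 11.4% of reads in Tdrkh-/- (11.39 to 11.42%) and 10.4% in Tdrkh+/- (10.40 to 10.42%). Among sequences that match a transcript the shares at 24 to 30 nt were 10.3% and 11.0%, the other way round. At 31 to 37 nt members were the smaller part in Tdrkh-/-, with 9.57% in Tdrkh-/- (9.56 to 9.58%) and 14.4% in Tdrkh+/- (14.38 to 14.44%). Among distinct sequences the shares were higher, 17.6% and 17.1% at 24 to 30 nt and 15.5% and 20.4% at 31 to 37 nt. The same pair of bases was then read 1 to 10 nt further into the same reads, where a shift of 9 nt brings its first base onto position 10. There the share with neither T nor A had a median of 52.6% in Tdrkh-/- and 54.5% in Tdrkh+/- at 24 to 30 nt, with ranges of 46.7 to 58.1% and 52.5 to 56.7%. The medians at 31 to 37 nt were 50.3% and 52.5%, with ranges of 45.1 to 55.5% and 49.0 to 55.7%. Without the shift of 9 nt the highest values were 54.4% and 56.2% at 24 to 30 nt and 55.2% and 55.7% at 31 to 37 nt. The unshifted shares of both libraries lay far below these ranges.

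Per microRNA read, members were scarcer at 24 to 30 nt and more frequent at 31 to 37 nt in Tdrkh-/-, as marked reads were. At 24 to 30 nt there were 0.669 member reads per microRNA read in Tdrkh-/- and 1.36 in Tdrkh+/-, giving a ratio of 0.492 (0.492 to 0.493). In the narrower window of 26 to 28 nt it was 0.294, and for sequences found in both libraries, a setting chosen after seeing the data, 0.794. The ratio was 0.359 for reads with a 5′ U alone, 0.517 for reads with both marks and 0.855 for those with 10A alone. At 31 to 37 nt there were 1.25 member reads per microRNA read in Tdrkh-/- and 0.399 in Tdrkh+/-, giving a ratio of 3.13 (3.12 to 3.13). Marked long reads differed more, with ratios of 4.43 for a 5′ U alone, 5.24 for both marks and 6.58 for 10A alone. In whole testes, fewer cells of a type and less RNA per cell cannot be told apart.

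Members were most frequent at 32 nt in Tdrkh-/- and at 27 nt in Tdrkh+/-. Their median length was 32 nt and 28 nt, and 65.1% of them had 31 to 37 nt in Tdrkh-/-, against 22.7% in Tdrkh+/-. Marked reads were most frequent at 35 nt in Tdrkh-/- and at 27 nt in Tdrkh+/-. The median of marked reads was likewise 32 nt in Tdrkh-/- and 28 nt in Tdrkh+/-, and in Tdrkh-/- neither kind of read had a sharp peak. There 10.3% of members had 32 nt and 11.6% of marked reads had 35 nt. No length from 31 to 37 nt held under 8.05% of the members of Tdrkh-/-, whereas in Tdrkh+/- 18.7% had 27 nt.

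Length by length, the member ratio was lowest at 27 nt, 0.247 (0.246 to 0.248), where marked reads had 0.265. It passed 1 at 24 nt (1.19) and at 30 nt (1.18) and was highest at 35 nt, 4.27 (4.24 to 4.30). Marked reads of 35 nt had a ratio of 9.96 (9.93 to 9.99). At 25 nt the ratios were 0.708 for members and 0.509 for marked reads, and at 26 nt 0.297 and 0.236. At each length from 31 to 37 nt the ratio of marked reads was the higher. The share of members among reads of 1 length was 16.9% at 25 nt in Tdrkh-/-, its highest value there, and 12.8% in Tdrkh+/-. In Tdrkh-/- it was 9.09% at 27 nt, 9.32% at 31 nt, 9.37% at 34 nt and 11.2% at 37 nt, with the lowest value, 8.31%, at 35 nt. In Tdrkh+/- it grew with length above 30 nt and was 9.72% at 27 nt, 11.2% at 31 nt, 16.1% at 34 nt and 20.8% at 37 nt.

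Among members A and C were the usual first bases and G the least used. At 24 to 30 nt 41.9% began with A, 43.5% with C and 14.6% with G in Tdrkh-/-, and 38.4%, 39.9% and 21.7% in Tdrkh+/-. The shares of A, C and G at 31 to 37 nt were 43.9%, 39.5% and 16.6% in Tdrkh-/- and 39.3%, 43.4% and 17.2% in Tdrkh+/-. G was the least used first base of reads with 10A alone too. It began 21.1% of them in Tdrkh-/- and 17.6% in Tdrkh+/- at 24 to 30 nt, and 10.1% and 11.3% at 31 to 37 nt. Of the 24 to 30 nt members in coding sequence 15.7% in Tdrkh-/- and 18.9% in Tdrkh+/- began with G, where 33.4% and 34.0% of the bases other than T in the same host genes were G. A first G was therefore less frequent than the host bases would give. A first A was more frequent, 46.6% of coding members in Tdrkh-/- and 42.0% in Tdrkh+/- against 34.1% and 32.9% of bases other than T. In 3′ untranslated regions the gap was wider for C, which began 43.1% of members in Tdrkh-/- and 44.3% in Tdrkh+/- against 31.2% and 31.8% of bases other than T. A began 43.0% and 37.6% of members there, against 36.4% and 35.1%. In long noncoding genes A began 37.004% and 37.6% of members, against 36.9% and 34.2%. Members that began with G also differed most between the genotypes at 24 to 30 nt, with a ratio of 0.332 (0.330 to 0.333), against 0.537 for A and 0.537 for C. The ratio at 31 to 37 nt was 3.01 for G, 2.84 for C and 3.49 for A.

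Position 10, where the rule leaves out A, held G in 40.9% of 24 to 30 nt members in Tdrkh-/- and 36.5% in Tdrkh+/-, T in 32.9% and 35.4%, and C in 26.3% and 28.04%. Elsewhere the members were rich in A near the 5′ end. At position 2 A stood in 37.3% of 24 to 30 nt members in Tdrkh-/- and in 40.7% in Tdrkh+/-, and at position 5 in 33.5% and 39.5%. Over positions 2 to 24, leaving out 10, the median share of A was 28.7% in Tdrkh-/- and 28.8% in Tdrkh+/-. Outside position 10, marked reads had their highest share of A at position 5 in both libraries, 39.5% in Tdrkh-/- and 43.7% in Tdrkh+/-, so an A at this position was common to reads with and without the marks.

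Members were read less often per sequence than marked reads and were less often found in both libraries. A member had 3.13 reads on average in Tdrkh-/- and 2.22 in Tdrkh+/-, against 4.93 and 3.87 for sequences with a 5′ U alone. Sequences read once carried 20.9% of member reads in Tdrkh-/- and 30.3% in Tdrkh+/-, but 13.2% and 17.3% of reads with a 5′ U alone. The most abundant 1% of sequences held 27.99% of member reads in Tdrkh-/- and 24.2% in Tdrkh+/-, against 48.4% and 46.3% of reads with a 5′ U alone. Of the members, 112390 were found in both libraries, and these carried 32.9% of member reads in Tdrkh-/- and 23.9% in Tdrkh+/-. For a 5′ U alone the reads of shared sequences were 56.5% and 50.5%.

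Exact matches to a GENCODE transcript were found for 48.2% of 24 to 30 nt member reads in Tdrkh-/- and 46.8% in Tdrkh+/-, and for 48.4% in both at 31 to 37 nt. More 24 to 30 nt member reads matched no transcript, 51.8% and 53.2%, so their source is unknown. Among matched reads, sense matches to protein-coding genes were the largest class. A sequence that also matched another kind of gene was counted there, unless it lay in over 20 genes. This class took 38.1% of 24 to 30 nt member reads in Tdrkh-/- and 39.2% in Tdrkh+/-, against 34.3% and 33.9% of marked reads. Long noncoding genes took 3.37% and 3.77% of members, against 5.91% and 5.82% of marked reads. Reads antisense to genes alone were 2.15% and 1.55% of members. Sequences in over 20 genes, counted here as repeats, held 3.09% of member reads in Tdrkh-/- and 0.740% in Tdrkh+/-, and their ratio per microRNA read was 2.06. Among marked reads they held 8.28% and 1.49%. They were the only class of 24 to 30 nt members with a ratio above 1 among the 7 classes of match. At 31 to 37 nt members of this class had a ratio of 9.70, and those sense to protein-coding genes one of 2.89. Fragments of microRNA and structural RNA genes, which the rule leaves out, came to 1.19% in Tdrkh-/- and 0.496% in Tdrkh+/- when all reads of 24 to 30 nt were counted, and nuclear transfer RNAs and the ribosomal RNA precursor could not be set aside because the annotation holds none.

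Within messenger RNAs members lay in coding sequence more often than marked reads did. At 24 to 30 nt the coding share of members was 41.3% in Tdrkh-/- (41.2 to 41.4%) and 39.2% in Tdrkh+/- (39.1 to 39.3%), and of marked reads 20.997% and 24.1%. The 3′ untranslated share was 55.2% and 57.1% for members and 76.4% and 72.8% for marked reads. The 5′ untranslated share was 3.51% and 3.65% for members. Coding sequence made up 52.0% of the bases of the 17547 host messenger RNAs, 3′ untranslated regions 41.1% and 5′ untranslated regions 6.83%. At 24 to 30 nt both kinds of read were thus more frequent in 3′ untranslated regions than their share of bases, the members less so. The coding share of members at 31 to 37 nt was 39.7% in Tdrkh-/- and 50.6% in Tdrkh+/-, and of marked reads 21.7% and 27.4%. The 3′ untranslated share of long members was 56.8% in Tdrkh-/- and 46.0% in Tdrkh+/-. By distinct sequences it was 47.8% and 40.3%, so in Tdrkh+/- it lay below the share of bases.

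Seen from the messenger RNA, reads without a mark were more frequent in coding sequence. Members made up 23.1% of 24 to 30 nt coding reads in Tdrkh-/- and 17.8% in Tdrkh+/-, 9.94% and 9.46% of those in 3′ untranslated regions and 17.3% and 13.5% of those in 5′ untranslated regions. Long members, of 31 to 37 nt, made up 18.9% of coding reads of that size in Tdrkh-/- and 28.2% in Tdrkh+/-, and 8.78% and 12.4% of 3′ untranslated reads. If reads had started at random within the same parts, in proportion to the reads each gene had, 57.6% and 58.6% of 24 to 30 nt coding reads and 52.5% and 53.4% of 3′ untranslated reads would have had neither mark. The observed shares were below those in every part and library, and the highest, long coding reads of Tdrkh+/- with 28.3% on the transcripts used for this count, was set against 57.7%. Per microRNA read, 24 to 30 nt coding members had a ratio of 0.453 (0.450 to 0.455) and 3′ untranslated members one of 0.415 (0.413 to 0.417). Long members of coding sequence had 2.16 (2.15 to 2.17) and those of 3′ untranslated regions 3.41 (3.39 to 3.42).

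The hosts of members were more spread out than those of marked reads. The 10 leading genes held 9.82% of gene-matched 24 to 30 nt member reads in Tdrkh-/- and 9.07% in Tdrkh+/-, against 17.6% and 17.1% for marked reads. D10Wsu102e (chromosome 10, 83360221 to 83488505) had the most over both libraries, 13161 reads in Tdrkh-/- and 19829 in Tdrkh+/-, a log2 ratio of -0.66 (-0.70 to -0.63). Members were 8.92% and 7.50% of its 24 to 30 nt reads. The long noncoding genes Gm49794 (chromosome 17, 27354111 to 27367492) and Gm10505 (27325035 to 27344833) lay beside each other. Gm49794 had 275 member reads in Tdrkh-/- and 26236 in Tdrkh+/- (log2 ratio -6.65, -6.83 to -6.48) and Gm10505 had 141 and 15208 (-6.83). Their marked reads had log2 ratios of -6.79 and -6.90, so members and marked reads of these loci differed alike between the genotypes. Members made up 6.35% and 5.80% of the reads of Gm49794 in Tdrkh-/- and Tdrkh+/-.

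Of members of 24 to 30 nt, Tmem245 had 2202 reads in Tdrkh-/- and 12276 in Tdrkh+/-, and Zbtb37 had 6612 and 7342. Fth1 had 2210 in Tdrkh-/- and 8788 in Tdrkh+/-, with a log2 ratio of -2.07 for members and -1.17 for marked reads. Its member share was 4.90% and 8.72%. In Zbtb37 the order of the shares was the other way round, 11.5% in Tdrkh-/- and 6.32% in Tdrkh+/-, and its member ratio of -0.22 lay above its marked ratio of -1.17. The single 28 nt sequence shown for Zbtb37 held 27.8% and 11.6% of its member reads. The long noncoding 1700001L05Rik had 1327 and 7853 member reads, which were 1.73% and 2.87% of its reads. Gm26905 and Gm47578 were also among the 10, with 9357 and 868 member reads and 8816 and 788. Hardly any of their member reads matched one gene alone, and 1 sequence of 25 nt, found in both genes, had 7676 reads in Tdrkh-/- and 181 in Tdrkh+/-.

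At 31 to 37 nt, in a ranking added after seeing the data, D10Wsu102e again led with 23531 member reads in Tdrkh-/- and 5129 in Tdrkh+/- (log2 ratio 2.12). Arid5a (chromosome 1, 36307733 to 36324029), an RNA-binding protein, had 8514 and 256 long member reads, a log2 ratio of 4.98 (4.80 to 5.17), while its long marked reads had 1.97. Members were 66.5% of its long reads in Tdrkh-/- and 19.7% in Tdrkh+/-, and a single sequence of 36 nt held 68.7% and 20.3% of these members. Fkbp8, an immunophilin of the mitochondrial outer membrane, had 6693 and 565 long member reads. Its member share was 21.9% in both libraries, and its log2 ratio was 3.49 for members and 3.49 for marked reads. In Nr2c2, an orphan nuclear receptor of the testis, the values were 6130 and 655, but 12.2% of these reads matched that gene alone and the others were divided among genes. In Tbl1xr1, a corepressor subunit, the values were 5569 and 239, and in Bpnt1, a nucleotidase, 5280 and 355.

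Genes differed widely in how many of their reads lacked both marks. In 915 genes the 24 to 30 nt reads numbered 2000 or more and 90% or more matched no other gene, and there the median share of members was 9.72% in Tdrkh-/- (interquartile range 6.56 to 14.5%) and 8.99% in Tdrkh+/- (6.73 to 12.4%). Random starts in these genes would have given 56.0%, with a range of 46.2 to 72.2%, and 911 of the 915 lay below their own value. Across these genes the member share and the share of random starts had a Spearman correlation of 0.117, given as a description over genes that share 2 libraries. The same limits were met by 739 genes at 31 to 37 nt, with a median of 7.88% in Tdrkh-/- and 11.1% in Tdrkh+/-, and the share was higher in Tdrkh-/- in 22.5% of them.

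The 5 genes with the highest share over both libraries rested on few sequences, 13 to 27 distinct members a gene in Tdrkh-/- and 23 to 65 in Tdrkh+/-. The noncoding Epb41l4aos (chromosome 18, 33794892 to 33795986) had 299 member reads in Tdrkh-/- and 2243 in Tdrkh+/- at 24 to 30 nt, 87.2% and 95.6% of its reads. Polr3gl had 4473 and 435 member reads, 94.0% and 44.8% of its reads, and the 27 nt sequence shown above gave 96.5% and 78.7% of them. In Gcnt2, a glycosyltransferase, members were 62.4% and 84.1%. In the noncoding 1110038B12Rik they were 80.1% and 74.5%, and in Acvr2b, an activin receptor, 66.7% and 57.3%. A single sequence held 16.4 to 96.5% of the member reads of these 5 genes in Tdrkh-/- and 15.3 to 78.7% in Tdrkh+/-.

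At the low end, Adk, adenosine kinase, had 29.5 member reads in Tdrkh-/- and 42 in Tdrkh+/-, 6.10% and 0.711% of its reads. Cnga3, a cyclic nucleotide-gated channel of cones, had 9 and 37 (2.48% and 1.15%), Zfp937 9.10 and 41.6 (1.15% and 1.76%) and the noncoding Gm15873 24 and 10 (1.04% and 1.56%). Gm10203 had 2.33 member reads among 4064 marked ones in Tdrkh-/-, 0.0574% of its reads, and no reads in Tdrkh+/-. Reads are fractional where a sequence was divided among genes.

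Per gene, members shifted in length between the genotypes much as marked reads of the same genes did. Of the 600 genes in which members of 24 to 30 nt had 500 or more reads, 441 (73.5%) were lower by 2-fold or more in Tdrkh-/- per microRNA read and 29 (4.83%) were higher by as much. The median log2 ratio was -1.65. For marked reads of the same 600 genes 470 (78.3%) were lower and 24 (4%) higher, with a median of -1.70. The difference between the log2 ratio of members and that of marked reads had a median of 0.08 and a interquartile range from -0.41 to 0.59. In the longer window 454 genes had 500 or more member reads, of which 375 (82.6%) were higher by 2-fold or more and 4 (0.881%) were lower. Their median log2 ratio was 1.84. Marked reads of these 454 genes had a median of 2.33, with 405 (89.2%) higher and 2 (0.441%) lower, and in 311 of the 454 the member ratio was the smaller. Of the 352 genes counted at both lengths, 308 (87.5%) had fewer members of 24 to 30 nt and more of 31 to 37 nt in Tdrkh-/-, 18 had more of both and 3 fewer of both. These genes were chosen for their number of members in the 2 libraries together, so the counts describe well-read hosts only. A gene could pass this limit through the library where it was high, as Arid5a with 8514 and 256 long member reads. The counts of lower and higher genes therefore depend in part on this choice. With a minimum of 100 reads a gene the median log2 ratios were -1.23 at 24 to 30 nt and 1.36 at 31 to 37 nt.

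Hosts of different kinds held very different shares of members. The 13 messenger RNAs of the mitochondrial genome, which lies outside the nucleus, had members in 55.0% of their 24 to 30 nt reads in Tdrkh-/- (53.0 to 56.9%) and 53.6% in Tdrkh+/- (51.6 to 55.6%). The shares at 31 to 37 nt were 54.9% and 56.9%. Member reads of these genes numbered 1376 in Tdrkh-/- and 1285 in Tdrkh+/-, giving a ratio of 1.02 per microRNA read, and 1.07 at 31 to 37 nt. The members of mt-Co1, cytochrome c oxidase subunit 1, numbered 612 and 674, and those of mt-Nd5, a subunit of complex I, 173 and 122. Members were 61.5% of the mt-Co1 reads in Tdrkh-/- and 65.7% in Tdrkh+/-, where random starts would have given 47.7%. They were 50.3% and 44.8% of the mt-Nd5 reads, where random starts would have given 44.9%.

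Genes of somatic cells, which lack piRNAs, also had many members. Of the 24 to 30 nt reads in Sertoli cell genes, members were 66.1% in Tdrkh-/- (62.3 to 69.7%) and 50.1% in Tdrkh+/- (46.8 to 53.5%), from 412 and 422 member reads. Clu, clusterin, had 198 and 186 of these and Ctsl, cathepsin L, 34 and 45. In genes of Leydig and peritubular cells the shares were 56.9% and 38.7%. There Myh11, smooth muscle myosin, had 427 and 142 member reads and Col1a1, a collagen chain, 100 and 103. In abundant cytoskeleton and metabolism genes the shares were 43.7% and 28.2%. There Hsp90ab1, a chaperone, had 776 and 573 member reads and Eef2, a translation elongation factor, 382 and 533. At 31 to 37 nt the order of the libraries turned in each of these lists. Sertoli cell genes then had 46.6% in Tdrkh-/- (43.6 to 49.7%) and 52.3% in Tdrkh+/- (48.6 to 55.9%), with intervals that overlap. Their turn leans on Ctsl, where long members were 16 reads (8.38%) in Tdrkh-/- and 54 (37.5%) in Tdrkh+/-. In Clu the long shares were 60.8% and 61.8%. Leydig and peritubular genes had 40.6% and 55.3%, and cytoskeleton and metabolism genes 42.9% and 51.0%.

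In spermatogonial genes members were 7.57% of reads at 24 to 30 nt in Tdrkh-/- (7.13 to 8.04%) and 10.4% in Tdrkh+/- (10.02 to 10.8%), the lowest of the 9 lists. Gene by gene, with both libraries together, the share had a median of 13.4% and ran from 2.80 to 37.7%. Ccnd2, cyclin D2, had 183 and 814 member reads, 7.48% and 8.09% of its reads. Zbtb16, a stem cell factor also known as PLZF, had 142 and 715, which were 31.3% and 25.2%. Early meiosis genes had 29.2% and 22.7%, with 156 and 242 member reads in Sycp1, of the synaptonemal complex, and 106 and 255 in Stag3, a meiotic cohesin. In genes of the piRNA pathway the shares were 36.5% and 24.3%. Piwil2, the PIWI protein Mili, had 1339 member reads in Tdrkh-/- and 774 in Tdrkh+/-, a log2 ratio of 0.72 (0.59 to 0.85), while its marked reads had -0.39. Exd1, a protein of the piRNA amplification loop, had 94.6 and 338.

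At 31 to 37 nt members made up 20.3% of the reads of cytosolic ribosomal protein genes in Tdrkh-/- and 23.2% in Tdrkh+/-. In histone genes they made up 21.5% and 25.4%. At 24 to 30 nt the order of the libraries was the other way round. There ribosomal protein genes had 22.0% and 19.8%, and histone genes 34.1% and 20.9%. Rpl4 had 869 member reads in Tdrkh-/- and 1384 in Tdrkh+/-, and Rpl9 had 167 and 1777. Of the Rpl4 member reads 24.9% matched that gene alone. The reads of Rpl9 and of the histone genes Hist1h4n and Hist1h4m came almost wholly from sequences shared with other copies, so their division among copies is uncertain. Of 11 ribosomal protein genes with 500 member reads 9 were at least 2-fold lower in Tdrkh-/-, and of 8 histone genes 5, against 73.5% of all genes so counted.

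Set against a median share of 17.5% over the 9968 genes in which 24 to 30 nt reads numbered 100 or more in both libraries together, 10 of 10 mitochondrial, 3 of 3 Sertoli and 7 of 7 Leydig and peritubular genes lay above it. So did 12 of 15 cytoskeleton and metabolism, 55 of 84 ribosomal protein, 52 of 70 histone and 14 of 20 piRNA pathway genes, and 8 of 14 early meiosis and 6 of 13 spermatogonial genes. Few genes of the somatic lists reached 100 reads, so these shares rest on small numbers. Members of the Sertoli list had a summed ratio of 0.928 per microRNA read at 24 to 30 nt, those of the Leydig and peritubular list 1.40, those of the piRNA pathway 0.798 and those of the spermatogonial list 0.377. The value of the piRNA pathway leans on Piwil2, which held most of its member reads in Tdrkh-/-. That of the Leydig and peritubular list leans on Myh11, with 427 of its 928 member reads in Tdrkh-/- and 142 of 630 in Tdrkh+/-. A single 29 nt sequence of Myh11 had 153 and 11 of these reads. Whether the libraries differed in cell makeup was not tested.

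Long members of Tdrkh-/- shared 5′ ends with shorter reads less often than marked long reads did. Of the 31 to 37 nt member reads of Tdrkh-/-, 44.3% had first 24 nt that also began a 24 to 30 nt read of Tdrkh+/- (44.2 to 44.3%). By distinct sequences the share was 20.5%. For marked reads the share was 69.9% with a 5′ U alone, 75.8% with both marks and 79.5% with 10A alone, and their shifted starts, described next for members, had medians of 45.0%, 46.6% and 59.8%. When the start was moved 1 to 7 nt into the read the median share for members was 40.6%, with a highest value of 42.8%, so members exceeded shifted starts by little. Counting only shifted starts that themselves had neither mark, the median was 34.3% and the highest value 37.1%. Within Tdrkh-/- itself 38.6% of long member reads began as a 24 to 30 nt read did, against a shifted median of 32.5%. In Tdrkh+/- the share within the library was 40.6%, against 33.7%.

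Member 5′ ends that both libraries covered with 50 or more reads numbered 1976, and their reads were longer in Tdrkh-/- at 85.9%. The median of their mean lengths was 31.4 nt in Tdrkh-/- against 29.04 nt in Tdrkh+/-, and the median difference was 1.56 nt, with a interquartile range of 0.368 to 3.19 nt. At 14143 ends with a 5′ U alone the difference was 2.22 nt, and reads were longer at 92.6% of ends. Both marks gave 2.02 nt and 91.4% at 7681 ends. The 2121 ends with 10A alone were close to members, with 1.48 nt and 87.8%, so the smaller difference was not particular to members. Ends with neither mark made up 7.62% of all such ends.

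The base that follows the 3′ end in the transcript was T more often in Tdrkh-/-. Among 24 to 30 nt members with a transcript match it was T in 46.2% of reads in Tdrkh-/- and in 27.9% in Tdrkh+/-, and among those of 31 to 37 nt in 52.4% and 33.6%. With each distinct sequence counted once the values were 40.7% and 27.4%, and 45.1% and 31.1%. Marked reads showed the same order, with 54.4% and 29.2% at 24 to 30 nt for a 5′ U alone. The last base of a 24 to 30 nt member was C in 37.4% in Tdrkh-/- and 40.0% in Tdrkh+/-. The base before the 5′ end was A in 32.4% in Tdrkh-/- and 37.7% in Tdrkh+/- and G in 20.1% and 19.2%, whereas reads with a 5′ U alone had G there in 9.8% and 10.3%. A G before the start was thus rarer for reads with a 5′ U in both genotypes.

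A minor part of the members lay beside a much more abundant read with a 5′ U. Of the 24 to 30 nt member reads on 1 transcript per gene, 14.3% in Tdrkh-/- and 15.9% in Tdrkh+/- started within 3 nt of a 5′ U start with at least 10 times as many reads. For reads with 10A alone the shares were lower, 9.42% and 11.7%. With each start counted once they were 13.3% and 14.9% for members and 14.3% and 14.8% for 10A alone. For members at a single offset the values by reads were highest 1 nt upstream, 4.61% and 5.15%, and 1 nt downstream, 3.24% and 3.65%. They were 0.53% and 0.65% at 12 nt upstream. Where the neighbouring base was T, 14.9% and 16.5% of member starts had such a start 1 nt upstream, and 4.39% and 4.34% had one 12 nt upstream.

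Pairs of opposite-strand members often overlapped by 10 nt, but the rule itself favours this overlap. At an overlap of 10 nt the first base of each read pairs with base 10 of its partner, so the partner of a member must also lack both marks. At any other overlap both reads have to meet the rule separately. Of the pairs of 24 to 30 nt members, weighed by reads, 44.5% overlapped by 10 nt in Tdrkh-/- and 22.6% in Tdrkh+/-, the most frequent overlap in both, against 4.17% if overlaps of 1 to 24 nt were equally frequent. With each distinct sequence counted once the shares were 14.6% and 9.90%. With sequences that match 1 gene alone they were 11.3% in Tdrkh-/- and 20.6% in Tdrkh+/-, so the order of the genotypes turned. Among pairs in which at least 1 read was a member, 4.11% overlapped by 10 nt in Tdrkh-/- and 1.30% in Tdrkh+/-. The other overlaps had medians of 2.09% and 3.82%. A member and a marked read cannot overlap by 10 nt, so the rule itself lowers this share and nothing is concluded from it. Pairs of any 24 to 30 nt reads had 32.1% and 18.4%.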

How the data were processed

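Small RNAs of 15 to 40 nt were purified from a gel and sequenced on a Genome Analyzer II according to the labels' protocols. Each deposited table holds raw counts, the number of reads of every distinct sequence of 18 to 40 nt in 1 library, per the labels and the values. The submitters' processing notes name Bowtie and mm9, and for adapter trimming nothing is given in the sources used here. The libraries held 60973266 reads (Tdrkh-/-) and 43172204 reads (Tdrkh+/-).

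Sequences were placed on GENCODE M21 transcripts (GRCm38), either strand, only where every base matched. The programs used NumPy 2.4.6 and Numba 0.67.0, SciPy 1.17.1 and pandas 2.3.3 under Python 3.11.15. A check on 100 sequences by plain string search found 0 strands that differed. MicroRNA reads were those of 18 to 25 nt in microRNA hairpins in sense. A read that matched several genes was split evenly, and sequences in more than 20 genes on 1 strand entered no gene count. Reads were placed in parts of the messenger RNA by their midpoint. Ratios are Tdrkh-/- over Tdrkh+/- per microRNA read, with exact conditional binomial intervals. Shares have Wilson intervals, and no test was run, as each genotype had 1 library. For a ratio, 0 reads were replaced by a floor of 3 counts. Starts were shifted by 1 to 7 nt where 5′ ends were compared, and not by up to 10 nt as planned, since a read of 31 nt allows no more. Overlaps of 1 to 24 nt were weighed by the product of read counts on 1 transcript per gene.

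Named hosts are the 10 protein-coding or long noncoding genes with the most 24 to 30 nt members, the 5 highest and 5 lowest member shares among genes with 2000 or more reads of 24 to 30 nt, 90% or more of them in that gene alone, and the 2 most abundant members of each of 9 gene lists. Printed sequences are the most abundant members in each length window that match 1 gene in sense and none antisense, not on chromosome 18. At most 2 were taken from a gene, of at most 30 nt or outside untranslated regions. Some genes and sequences that these rules name are not reported here. The members, lists and rules were chosen with earlier results of these data known. The ranking of hosts at 31 to 37 nt and the setting that keeps sequences found in both libraries were added after seeing the data. Other alternatives were distinct sequences, sequences read once left out, narrower windows, sequences that match a transcript or 1 gene alone, another scaling and a lower count minimum.

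The gene ratios were also tested on simulated data, with Poisson draws for the 600 and 454 host genes and 200 genes altered. In both windows the 2-fold mark was passed by 100 of 100 genes altered 4-fold, by 0 of 100 altered 1.5-fold and by 0 of the rest. Intervals held the true ratio in 95.8% and 96.5% of genes. The draws carried counting error alone, so this outcome followed largely from how they were made. They cannot show how far animals or libraries differ, and so do not check the gene ratios against that spread.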

Additional observations from a re-analysis of the deposited data

Results flagged for a closer look

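Reads of 38 to 40 nt lay outside the lengths described above. Those of them with neither T at position 1 nor A at position 10 numbered 900106 in Tdrkh-/- and 264664 in Tdrkh+/-, giving a ratio of 3.23 per microRNA read (3.22 to 3.25). They made up 12.1% of reads of these lengths in Tdrkh-/- and 21.6% in Tdrkh+/-. Reads with a mark had higher ratios, 7.11 at 38 nt, 6.10 at 39 nt and 6.05 at 40 nt, against 3.37, 3.37 and 2.94 for those with neither. The reads with neither mark are listed here because a signal was found in data that the comparisons did not use. It was above that of the control library.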

How the results depend on the processing

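By distinct sequences, the share with neither mark was 17.6% in Tdrkh-/- and 17.1% in Tdrkh+/- at 24 to 30 nt and 15.5% and 20.4% at 31 to 37 nt. Without sequences read once it was 10.3% and 8.97%, and 8.78% and 12.5%. In the narrower windows of 26 to 28 nt and 33 to 36 nt it was 11.0% and 10.2%, and 9.19% and 16.5%. Among sequences that match a transcript it was 10.3% and 11.0%, and 9.23% and 16.01%, so that the order of the libraries turned at 24 to 30 nt. Among those that match 1 gene alone it was 12.8% and 10.7%, and 10.6% and 16.3%. Among sequences found in both libraries, a setting chosen after seeing the data, it was 6.96% and 5.04%, and 5.20% and 7.64%.

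The ratio of members per microRNA read at 24 to 30 nt and at 31 to 37 nt was 0.528 and 3.86 without sequences read once, 0.294 and 3.87 in narrower windows, 0.400 and 2.69 with 1 gene alone, 0.367 and 2.33 per read listed, and 0.794 and 3.81 for sequences found in both libraries. Among sequences that match a transcript the 24 to 30 nt ratio was 0.507. Each stayed on its side of 1. Median log2 ratios of host genes at the 2 lengths were -1.55 and 2.11 without sequences read once, -2.54 and 2.57 in narrower windows, -1.81 and 1.79 with 1 gene alone, -2.07 and 1.42 per read listed, which shifts log2 ratios by -0.42, and -1.23 and 1.36 with at least 100 reads a gene.

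The 3′ untranslated share of 24 to 30 nt members was 46.6% in Tdrkh-/- and 49.5% in Tdrkh+/- by distinct sequences, 55.4% and 58.6% without sequences read once, 54.2% and 58.3% at 26 to 28 nt and 53.7% and 58.4% with 1 gene alone. Long members of Tdrkh-/- shared their first 24 nt with a shorter Tdrkh+/- read in 20.5% by distinct sequences, 44.2% without sequences read once, 53.6% with a transcript match and 40.9% with 1 gene alone. Pairs of members that overlapped by 10 nt were 14.6% in Tdrkh-/- and 9.90% in Tdrkh+/- by distinct sequences, 44.8% and 22.4% without sequences read once, 49.1% and 22.3% at 26 to 28 nt, and 11.3% and 20.6% with 1 gene alone, where the order turned. The cause of these moves was not tested.

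No paired analysis was possible because each genotype had 1 library, and there was no replicate to leave out. Counting error was small at this depth, and without replicates the spread between animals is unknown. Of the 24 to 30 nt member reads, 51.8% in Tdrkh-/- and 53.2% in Tdrkh+/- matched no transcript and were not placed.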
